A study of Mus musculus with 8 samples.

Results

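10 genes of growth factor signalling were followed across 4 mouse sarcoma lines: the receptors Pdgfra, Pdgfrb, Kit, Met, Egfr, Axl and Igf1r, and the ligands Pdgfa, Pdgfc and Hgf. They were taken by name from the 18768 genes of the deposited table, and all 10 were in it. RNA was sequenced from 8 libraries, 2 of each line. MC010 and MC011 were derived from tumors of IRF8 knock-out mice (label IRF8 KO) and MC654 and MC659 from tumors of wild-type mice (label WT). All the mice had been injected subcutaneously with the carcinogen methylcholanthrene at 100 µg each, and every digested tumor was cultured for at least 10 passages before it was used as a stable line. Each label therefore rests on 2 lines. Nothing says that the 2 libraries of a line were separate cultures. P-values between lines therefore measure only the spread between the libraries of a line, which may be technical. P-values between labels count the 4 libraries of a label as separate although they come from 2 lines, so their spread mixes lines and libraries.

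Receptor tyrosine kinases are membrane proteins whose outer part binds a growth factor and whose inner part then phosphorylates tyrosines, which recruits adaptors and switches on the RAS-ERK and PI3-kinase pathways. PDGF receptors are the classical growth receptors of fibroblasts, pericytes and other mesenchymal cells, and PDGF-A and PDGF-C are ligands of the alpha receptor. HGF, which mesenchymal cells secrete, binds MET, and EGFR, KIT, AXL and IGF1R answer to the EGF family, stem cell factor, GAS6 and the insulin-like growth factors.

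The libraries held 74063616 to 116206078 counts, and 9 of the 10 genes were among the 15153 that passed the filter on low counts. Levels are given as CPM, counts per library size after TMM adjustment. A gene was called at an adjusted p under 0.05 and a log2 difference above 0.59 in size, by the quasi-likelihood test of edgeR, with Benjamini-Hochberg adjustment across the tested genes. The targeted gene, Irf8, had 442 and 347 counts in MC010, 32 and 10 in MC011 and at most 2 in any WT library, opposite to what the labels would give. The lines had been genotyped by PCR on genomic DNA, and which exons the deletion removes is not given in the sources used here, so counts over the whole gene cannot check the labels. Directions are given by label. The 8 mesenchymal markers summed to 10491 to 11772 CPM in the libraries labelled IRF8 KO and 15791 to 17403 CPM in WT. Within that list Vim stood at 4532 to 7384 CPM in every library, Fn1 was lower under the IRF8 KO label (log2 difference -2.33), S100a4 (2.17) and Thy1 (1.93) were higher, and the other 5, Vim included, were not called. Of the 7 hematopoietic markers, 4 were in the table and summed to 5.72 to 7.38 CPM in the libraries labelled IRF8 KO and 9.67 to 11.4 CPM in WT, most of it Cd68, whose log2 difference was -0.58, while Ptprc did not exceed 0.177 CPM and Itgam, Adgre1 and Cd3e were not in the table. The epithelial list, in which Epcam and Cdh1 did not exceed 1.19 and 0.394 CPM, summed to 530.8 and 565.3 CPM in MC010 against 34.1 to 128.5 CPM in the other libraries, nearly all of it Krt8 and Krt18. The part of these lists in the results was not tested.

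Between the labels, 3 of the 9 tested genes were called. Pdgfra was higher under the IRF8 KO label, Egfr and Axl were lower, and Pdgfrb, Pdgfa, Pdgfc, Met, Hgf and Igf1r did not pass. Over all genes tested, 13.7% were called higher and 8.72% lower, so counts of 1 and 2 of 9 are of the size the background gives. The median absolute log2 difference was 0.61 over the 9 genes and 0.36 over all genes tested. In 1 gene all libraries labelled IRF8 KO lay above all WT libraries and in 3 genes below, where 22.1% and 20.5% of all genes did so. The lines also differed inside the IRF8 KO label. Between MC010 and MC011, 6 of the 9 were called, against 31.6% of all genes. Across labels, 5 were called for MC010 and MC654 (35.9% of all genes), 6 for MC010 and MC659 (36.8%), 5 for MC011 and MC654 (29.7%) and 5 for MC011 and MC659 (30.3%). Between MC654 and MC659 only Hgf was called, against 4.95% of all genes. Against the mean of the WT lines, 5 of 9 were called in MC010 (37.1% of all genes) and 5 of 9 in MC011 (30.7%).

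**Figure D1:**
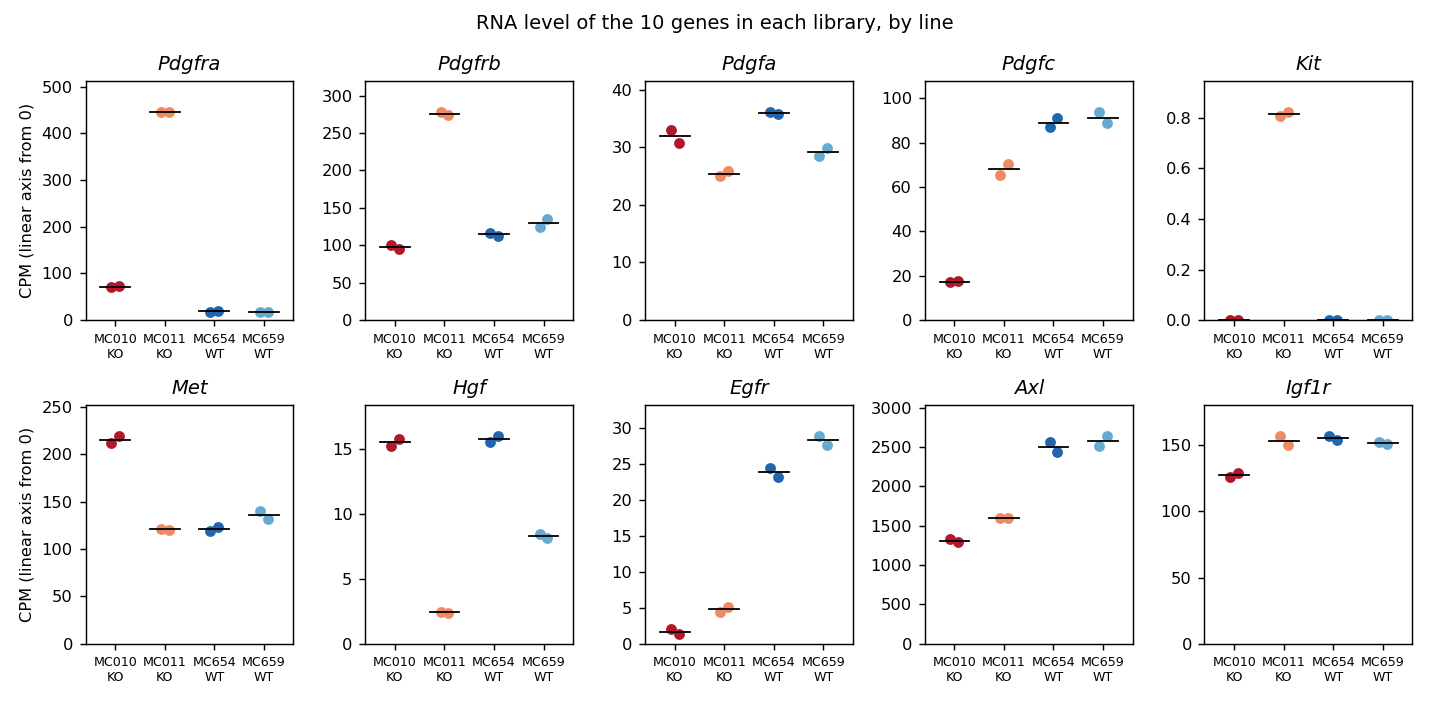
Level of each of the 10 genes in every library, in CPM on a linear axis from 0 with its own scale per gene. Points are the 2 libraries of a line, bars their mean, KO and WT the labels. MC011 stands apart for Pdgfra, Pdgfrb, Kit and Hgf, and MC010 for Pdgfc and Met, while between the 2 WT lines only Hgf was called.

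Pdgfra (chromosome 5 of mm10, 75152292 to 75198215, plus strand), the alpha receptor, which binds PDGF-A and PDGF-C, was the only member called higher under the IRF8 KO label. It had 70.2 and 72.4 CPM in MC010 and 445.0 and 445.6 CPM in MC011, and the WT libraries held 17.8 and 19.9 (MC654) and 18.2 and 17.1 CPM (MC659). All libraries labelled IRF8 KO lay above all those labelled WT, and MC011 lay far above MC010. The means were 258.3 ± 216 CPM (SD, n = 4 libraries of 2 lines) and 18.2 ± 1.18 CPM (SD, n = 4). The log2 difference was 3.82 (standard error 0.70, adjusted p = 0.00376 from edgeR). Line by line, MC011 exceeded MC010 by 2.64 on the log2 scale (a fold of 6.25, adjusted p = 5.79e-15 when edgeR was fitted by line), and MC010 exceeded the mean of the WT lines by 1.97 (a fold of 3.91). MC654 and MC659 were not distinguishable (log2 difference 0.09, standard error 0.06, edgeR adjusted p = 0.367).

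Pdgfrb (chromosome 18, 61045150 to 61085061, plus strand), the beta receptor, which PDGF-B and PDGF-D bind, was raised in MC011 alone. Its levels were 99.7 and 95.2 CPM in MC010, 277.9 and 274.2 CPM in MC011, and 116.6, 112.9, 124.8 and 134.9 CPM in the WT libraries, those of MC654 first. The groups overlapped, with MC010 below the WT lines and MC011 above them. The log2 difference between the labels was 0.61 (standard error 0.37, adjusted p = 0.236 from edgeR), whereas MC011 stood at 2.26 times the mean of the WT lines and 2.83 times the level of MC010, both past the thresholds. With MC011 left out the difference between the labels turned to -0.34. Counted per kb of exon, the ratio of Pdgfra to Pdgfrb was 0.0694 to 0.0963 in the WT libraries, 0.385 and 0.416 in MC010, and 0.875 and 0.888 in MC011. On this scale the alpha receptor was below the beta receptor in every library, and least so in MC011. In MC011 that order rests on the annotated exon lengths (10024 bp for Pdgfra and 5478 bp for Pdgfrb). In CPM, Pdgfra was the higher of the pair there, at 445.0 and 445.6 CPM. The 6 pericyte and smooth muscle markers moved in different ways in MC011. Cspg4 was highest there, at 124.0 and 112.8 CPM against 24.3 to 46.9 CPM elsewhere, as was Notch3, whereas Acta2 was lowest, at 74.5 and 71.5 CPM against 141.8 to 503.7 CPM, and Des had 0 counts. Their sum was 173.6 to 205.4 CPM in the libraries labelled IRF8 KO and 325.3 to 531.9 CPM in WT, and the part of this list in the result was not tested. In bulk RNA, more cells of a type and more RNA per cell cannot be told apart.

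Pdgfa (chromosome 5, 138976014 to 138997370, minus strand), a ligand of the alpha receptor, was the steadiest of the 3 ligands. MC010 held 33.0 and 30.8 CPM, MC011 24.9 and 25.8 CPM, MC654 36.1 and 35.7 CPM and MC659 28.5 and 29.9 CPM. The labels overlapped, and none of the 6 differences between lines was called. Its log2 difference between the labels was -0.18 (standard error 0.12, adjusted p = 0.280 from edgeR). It overlaps 6330403L08Rik, an antisense gene with up to 1359 counts in a library, and the strand setting of the counting is not stated, so reads of the 2 genes may not be separable.

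Pdgfc (chromosome 3, 81036416 to 81214040, plus strand), the other alpha-receptor ligand, which must be cut by a protease to become active, was low in MC010, at 17.0 and 17.5 CPM. MC011 held 65.4 and 70.3 CPM, MC654 86.9 and 90.8 CPM and MC659 93.7 and 88.7 CPM. All libraries labelled IRF8 KO lay below all those labelled WT, yet the difference between the labels did not pass (log2 difference -1.08, standard error 0.48, adjusted p = 0.114 from edgeR). MC010 lay 2.39 below the mean of the WT lines on the log2 scale, a fold of 5.23, and MC011 lay 0.41 below it, short of the fold threshold. DESeq2 gave an adjusted p of 0.0428 for the comparison of the labels. Per kb of exon, Pdgfa exceeded Pdgfc by a ratio of 2.87 and 3.17 in MC010 and stood at 0.496 to 0.677 of it in the other 6 libraries.

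Kit (chromosome 5, 75574916 to 75656722, plus strand), the stem cell factor receptor, which neighbours Pdgfra at a distance of 376701 bp, had 78 and 65 counts in MC011 and 0 counts in each of the other 6 libraries. Being near 0 in most libraries, it did not pass the filter and has no place among the 9 tested genes. Against a floor of 3 counts per library, its mean of 0.816 CPM in MC011 was at least 24.3-fold higher than in MC010, at least 22.9-fold higher than in MC654 and at least 24.2-fold higher than in MC659. Without the filter, edgeR gave an adjusted p of 2.75e-06 for MC010 against MC011 and of 0.0918 between the labels. Of the mast cell list, which holds cells rich in KIT, Ms4a2 was the only gene in the table, with 0 counts in all libraries labelled IRF8 KO. Chic2, which lies on the other side of Pdgfra, was at 20.7 to 24.5 CPM as a mean in every line and was not called (log2 difference -0.06). Of the 11 tested genes within 1 Mb of Pdgfra, 2 were called higher and 1 lower between the labels, beside 13.7% and 8.72% of all genes.

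Met (chromosome 6, 17463800 to 17573980, plus strand), the HGF receptor, was highest in MC010. It held 211.3 and 219.3 CPM there, 121.0 and 120.4 CPM in MC011, and 118.9, 123.2, 139.8 and 131.1 CPM in the WT libraries, MC654 first. MC010 lay above all others, and MC011 lay among the WT libraries. MC010 exceeded the other lines by 0.83, 0.83 and 0.67 on the log2 scale, past the thresholds each time, and those 3 lines did not pass against each other. Between the labels the log2 difference was 0.39 (standard error 0.22, adjusted p = 0.193 from edgeR), and with MC010 left out it was -0.11. Of the 11 tested genes within 1 Mb of Met, 5 were called higher between the labels and 0 lower, beside 13.7% and 8.72% of all genes. The reason was not tested.

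Hgf (chromosome 5, 16553495 to 16620152, plus strand), the ligand of MET, was the only member called within both labels. MC010 held 15.2 and 15.8 CPM, MC011 2.47 and 2.38 CPM, MC654 15.5 and 16.0 CPM and MC659 8.42 and 8.12 CPM. MC010 and MC654, lines of opposite labels, were not distinguishable (log2 difference -0.02, standard error 0.08, edgeR adjusted p = 0.817), and the remaining 5 of 6 differences between lines were called. MC010 exceeded MC011 by 2.67 on the log2 scale, and MC654 exceeded MC659 by 0.93. Between the labels the adjusted p was 0.658 from edgeR. Relative to its receptor per kb of exon, Hgf stood at 0.138 and 0.139 in MC654, 0.0769 and 0.0770 in MC010, 0.0644 and 0.0661 in MC659, and 0.0211 and 0.0218 in MC011.

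**Figure D2:**
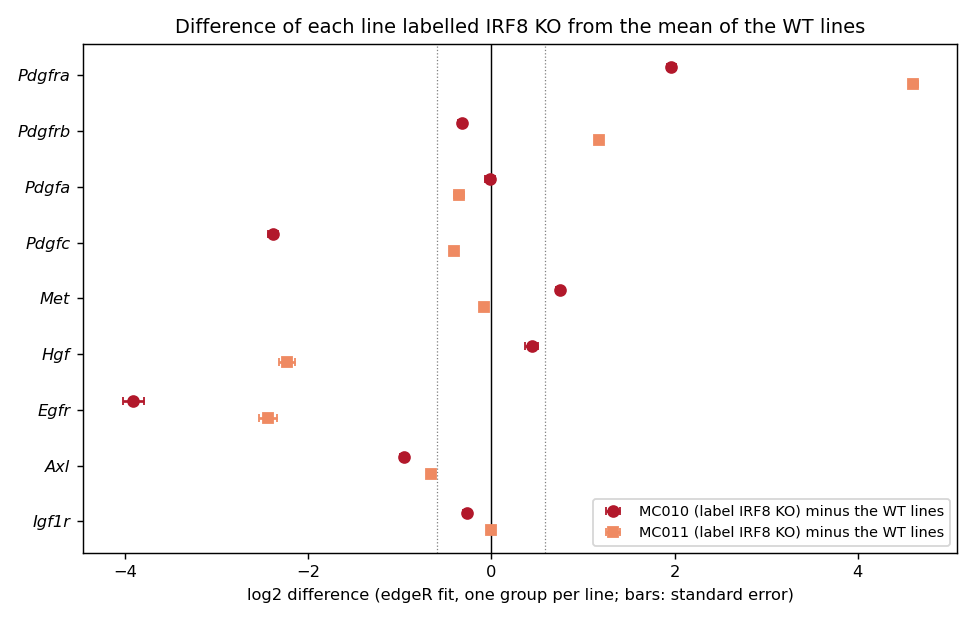
Log2 difference of each line labelled IRF8 KO from the mean of the WT lines for the 9 tested genes, from edgeR fitted by line. Circles are MC010, squares MC011, bars the standard error, and dotted lines the fold threshold of 0.59. Pdgfra, Egfr and Axl lie past the threshold on the same side in both lines, and Pdgfrb, Pdgfc, Met and Hgf in a single line each.

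Egfr (chromosome 11, 16752203 to 16918158, plus strand), the receptor of EGF, TGF-alpha and their relatives, fell furthest. MC010 held 1.98 and 1.39 CPM, MC011 4.48 and 5.13 CPM, MC654 24.5 and 23.3 CPM and MC659 29.0 and 27.7 CPM. Behind these stood 102 to 432 counts per IRF8 KO library and 1978 to 2556 per WT library. The groups did not overlap. The means were 3.25 ± 1.84 CPM (SD, n = 4 libraries of 2 lines) and 26.1 ± 2.66 CPM (SD, n = 4), and the log2 difference was -3.01 (standard error 0.42, adjusted p = 0.00103 from edgeR). MC010 was lower than MC011 by 1.47 on the log2 scale (a fold of 2.77, edgeR adjusted p = 1.49e-07). Egfros, an antisense gene within Egfr, had at most 27 counts in a library. Within 1 Mb of Egfr, 0 of 10 tested genes were higher and 2 were lower, beside 13.7% and 8.72% of all genes. Those lower were Cnrip1 (log2 difference -3.04) and Eldr (-0.84), which are named after their values were seen.

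Axl (chromosome 7, 25757273 to 25788705, minus strand), a receptor of GAS6 and a common kinase of mesenchymal tumor cells, was the most abundant of the 10 genes in every library. It reached 1327 and 1289 CPM in MC010, 1605 and 1598 CPM in MC011, and 2560, 2438, 2517 and 2642 CPM in the WT libraries, MC654 first. The groups did not overlap and the lines of one label lay close together. The means were 1455 ± 170 CPM (SD, n = 4 libraries of 2 lines) and 2539 ± 84.8 CPM (SD, n = 4), with a log2 difference of -0.80 (standard error 0.09, adjusted p = 0.000317 from edgeR). All 4 differences between a line of one label and a line of the other were called, with log2 differences from -0.98 to -0.64, and neither difference within a label was.

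Igf1r (chromosome 7, 67952827 to 68233668, plus strand), the receptor of the insulin-like growth factors, moved least. MC010 held 126.2 and 128.8 CPM, MC011 157.1 and 150.0 CPM, MC654 156.7 and 154.0 CPM and MC659 152.8 and 150.9 CPM, so the labels overlapped and MC010 was lowest. No difference between lines was called. MC010 was lower than the WT mean by 0.27 on the log2 scale (standard error 0.04, adjusted p = 1.66e-05 from edgeR), short of the fold threshold, and MC011 was close to it (log2 difference -0.00012, standard error 0.04).

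The calls for Pdgfra, Egfr and Axl depended on how the libraries of a line were treated. When both libraries of a line were summed, which leaves 2 lines against 2, the log2 differences were 3.83, -2.998 and -0.80 and the adjusted p-values 0.156, 0.118 and 0.115 from edgeR. That fit called 0 of 16927 genes. With limma-voom and line as a random effect, all 3 were still called (adjusted p 0.0452, 0.000513 and 0.00125). The edgeR adjusted p of Pdgfra was 0.0687 without MC654 and 0.0761 without MC659, while those of Egfr and Axl stayed under 0.05.

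The stretches just upstream of the start sites of the 3 called genes are shown, since these genes separated the labels. Each holds 250 bases before the RefSeq start on GRCm38.p6, the build of the files, read 5′ to 3′ on the gene's strand. Capitals mark matches to the GC box GGGCGG on either strand.
Pdgfra, chr5:75152001-75152250, plus strand: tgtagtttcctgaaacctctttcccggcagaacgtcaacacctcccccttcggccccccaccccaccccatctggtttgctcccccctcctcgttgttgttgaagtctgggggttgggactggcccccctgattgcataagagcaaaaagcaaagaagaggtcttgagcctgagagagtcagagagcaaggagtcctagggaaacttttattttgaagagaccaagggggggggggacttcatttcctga
Egfr, chr11:16751953-16752202, plus strand: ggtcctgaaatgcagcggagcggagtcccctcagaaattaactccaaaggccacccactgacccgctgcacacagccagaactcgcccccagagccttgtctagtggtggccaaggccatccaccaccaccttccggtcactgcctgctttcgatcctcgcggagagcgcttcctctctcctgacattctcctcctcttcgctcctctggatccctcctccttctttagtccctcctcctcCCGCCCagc
Axl, chr7:25788734-25788983, minus strand: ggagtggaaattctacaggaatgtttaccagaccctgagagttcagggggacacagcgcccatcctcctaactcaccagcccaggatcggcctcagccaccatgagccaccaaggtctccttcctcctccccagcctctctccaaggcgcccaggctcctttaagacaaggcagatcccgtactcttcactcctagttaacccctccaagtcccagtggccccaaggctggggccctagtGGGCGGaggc
Egfr and Axl each held 1 GC box within this window, and Pdgfra held 0, where 32.7% of all 32851 RefSeq promoter windows of this length held at least 1. TATAAA, found in 12.4% of windows, and CCAAT, found in 33.8%, had 0 matches in all 3, on both strands. The core of the interferon-stimulated response element, to which IRF proteins can bind (GAAA, any 2 bases, GAAA), was found in 2.98% of windows and had 0 matches here on both strands. CpG pairs numbered 4, 11 and 5 in Pdgfra, Egfr and Axl against a median of 6. A match or its absence describes only the letters of this window.

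Levels between genes were compared per kb of exon, from the exon union of the GENCODE annotation. On this scale Axl stood at 259.9 and 318.1 CPM per kb in MC010 and MC011 and at 496.5 and 512.5 in MC654 and MC659, above 99.2% to 99.7% of the genes tested. In the WT lines the order then ran Pdgfrb, Pdgfc and Met, with 20.9 and 23.7 CPM per kb for Pdgfrb in MC654 and MC659. In MC011 Pdgfrb (50.4) and Pdgfra (44.4) came next after Axl, and in MC010 Met did (28.0). Pdgfra moved from the 37.3 to 38.6 percentile of tested genes in the WT lines to the 60.7 in MC010 and the 93.0 in MC011. Egfr moved the other way, from the 40.1 and 42.0 percentile in WT to the 12.2 in MC010 and the 21.9 in MC011.

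**Figure D3:**
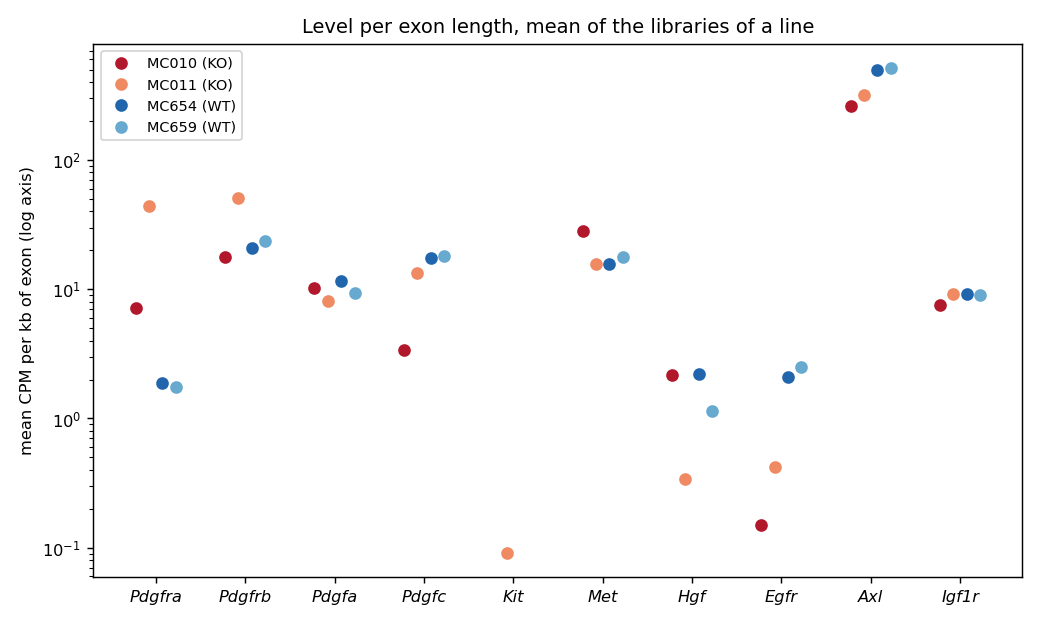
Mean level of each gene in each line per kb of exon, in CPM per kb on a log axis. Colours are the lines, and Kit has a point in MC011 only because it was at 0 elsewhere. Axl exceeds all other members in every line. The order of the PDGF receptors, Met and Pdgfc below it is the same in MC654 and MC659 and differs in MC010 and in MC011.

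Of the 14 other ligands of these receptors, 13 were in the table and 11 were tested. Under the IRF8 KO label 4 were higher and 0 lower, beside 13.7% and 8.72% of all genes tested. Kitl, the gene of stem cell factor, rose in both lines, to 246.2 and 273.8 CPM in MC010 and 281.5 and 299.1 CPM in MC011 from 57.7 to 69.7 CPM in WT (log2 difference 2.14, standard error 0.08). Its receptor Kit was near 0, as given above. Pdgfd, a ligand of the beta receptor, was raised mainly in MC010, at 18.3 and 19.1 CPM against 0.498 and 0.557 CPM in MC011 and 0.120 to 0.389 CPM in WT. Pdgfb, the other ligand of that receptor, had 2.26 and 1.82 CPM in MC010, 0.674 and 0.646 CPM in MC011 and 0.132 to 0.317 CPM in WT. The beta-receptor ligands were thus highest in MC010, where Pdgfrb was lowest but not called against the WT lines. They were next highest in MC011, where Pdgfrb was highest. Tgfa, a ligand of EGFR, was raised mainly in MC011, at 3.86 and 4.84 CPM against 0.306 and 0.259 CPM in MC010 and 0.0227 to 0.133 CPM in WT.
Of the EGFR ligands not called between the labels, 3 were called higher in MC010 than in MC011, Egf was called lower and Epgn was not called. Between these lines 31.6% of all genes tested were called in either direction. Btc had a mean of 43.6 CPM in MC010 and 2.36 CPM in MC011, Ereg 90.0 and 23.5 CPM, Hbegf 100.1 and 33.1 CPM, and Egf 0.744 and 1.71 CPM. Gas6, the ligand of AXL, and Pros1, a ligand of its sister receptors, were both called lower in MC010 than in MC011. Gas6 had 0.280 and 0.122 CPM in MC010 and 9.79 and 10.2 CPM in MC011, against 0.435 to 0.612 CPM in WT, and the line means of Pros1 were 8.69 and 43.1 CPM. Igf1, which did not pass the filter, had 241 and 140 counts in MC010, 13 and 8 in MC011 and at most 2 in a WT library.

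Of 15 close relatives of the receptors, 11 were tested, of which 5 were higher and 1 lower, beside 13.7% and 8.72% of all genes. Flt1, a VEGF receptor of the class related to the PDGF receptors, was high in both lines, with a mean of 106.4 CPM in MC010, 86.3 CPM in MC011, 2.92 CPM in MC654 and 1.76 CPM in MC659 (log2 difference 5.36, standard error 0.25). Flt4, its relative, rose by 4.04, Mertk, of the AXL family, by 2.38 and Erbb3, of the EGFR family, by 2.35 on the log2 scale. Flt4 had means of 1.25 CPM in MC010 and 9.27 CPM in MC011, Mertk 14.1 and 4.62 CPM, and Erbb3 0.624 and 1.66 CPM. WT line means, MC654 first, were 0.243 and 0.392 CPM for Flt4, 2.04 and 1.56 for Mertk, and 0.154 and 0.293 for Erbb3. Igf2r, which clears IGF2 and is no kinase, rose by 0.61 on the log2 scale. Csf1r, of the KIT family and also a macrophage marker, fell by 1.93, with 0.935 to 1.80 CPM in the WT libraries and 0.245 to 0.477 CPM in the others. Erbb2, the partner of EGFR, was lower by 0.51 on the log2 scale, short of the fold threshold, and Insr, Tyro3 and Pdgfrl did not pass. Mst1r did not pass either (log2 difference -2.20, adjusted p = 0.104 from edgeR). Its libraries labelled IRF8 KO (0.0127 to 1.08 CPM) all lay below its WT libraries (1.60 to 3.09 CPM), as in 20.5% of all genes. The 4 endothelial markers summed to 0.468 to 0.912 CPM in the libraries labelled IRF8 KO and 0.465 to 0.683 CPM in WT. Pecam1 and Cdh5 did not pass, Kdr was not tested, and Tek was higher under the IRF8 KO label, as Flt1 was (log2 difference 2.37, with means of 0.273 and 0.0520 CPM), and their part in the Flt1 result was not tested.

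Of 17 extracellular activators and binding proteins, 13 were tested, of which 8 were higher and 0 lower. Spint1 and Spint2, inhibitors of the proteases that activate HGF, rose by 4.66 and 4.78 on the log2 scale, Spint2 to similar levels in both lines (means of 6.28 and 8.79 CPM) and Spint1 mainly in MC010 (9.29 and 0.778 CPM). Among IGF-binding proteins, 4 were called higher, Igfbp3 (log2 difference 6.35), Igfbp4 (2.95), Igfbp5 (2.87) and Igfbp6 (1.13). Igfbp5 was raised mainly in MC010, with means of 5.41 CPM there, 0.644 CPM in MC011, 0.190 CPM in MC654 and 0.635 CPM in MC659. Its libraries of MC011 and MC659 overlapped. Igfbp4 stood at means of 1037 and 942 CPM in MC010 and MC011 against 111.8 and 144.3 CPM in the WT lines, whereas Igfbp3 stood at 326.9 CPM in MC010 and 8.68 CPM in MC011. Nrp1 and Cd44, co-receptors of PDGF and HGF signalling, rose by 0.69 and 0.67. Of 18 adaptors and inhibitors inside the cell, all of them tested, 2 were higher and 0 lower, Irs1 (1.19), the docking protein of the insulin and IGF1 receptors, and Ptprj (0.98), a receptor phosphatase. The other 16 did not pass, and the median log2 difference over the 18 was 0.21. Over the 4 lists, 19 of 53 tested genes were called higher and 1 lower, beside 13.7% and 8.72% of all genes tested, with a median log2 difference of 0.38 beside 0.02 over all genes. The count of higher genes was 9 without MC654, 7 without MC659, 0 with counts added per line and 11 when limma-voom treated line as a random effect.

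**Figure D4:**
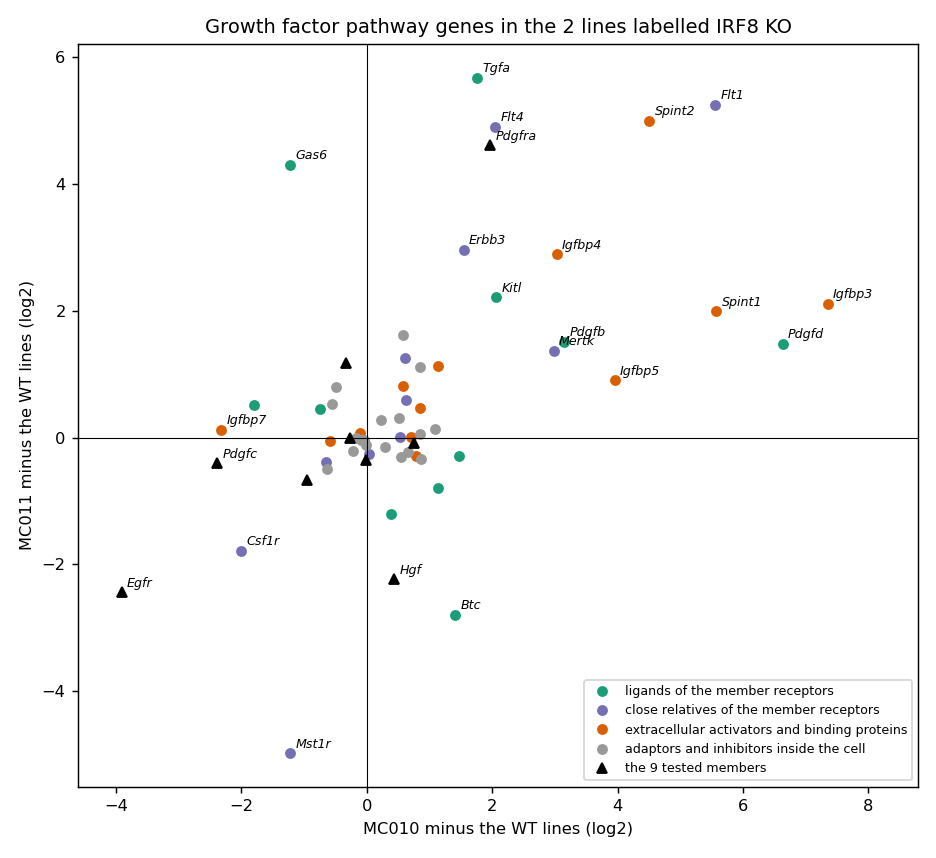
Log2 difference from the mean of the WT lines in MC010 (horizontal axis) and in MC011 (vertical axis) for the 53 tested genes of the 4 pathway lists (coloured circles) and the 9 tested members (black triangles). Both axes come from one fit and share the WT libraries. Flt1, Spint2, Igfbp4 and Kitl lie far from 0 in both lines, Pdgfd and Igfbp3 mainly in MC010, and Tgfa and Gas6 in MC011.

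The members did not share a single pattern over the 8 libraries, 2 from each line. The Pearson's r of log2 CPM, given as a description, was highest for Egfr with Axl (0.99), followed by Pdgfc with Igf1r (0.96) and Pdgfa with Hgf (0.91), and was 0.77 for Pdgfra with Pdgfrb. The lowest values were -0.98 for Pdgfrb with Hgf, -0.97 for Met with Igf1r and -0.94 for Pdgfc with Met. Among 9035 genes with a mean log2 CPM of at least 3, the closest to Pdgfra were Galnt18, Dab2 and Arf2, the closest to Egfr were Nucb2, Cacng7 and Snx24, and the closest to Axl were Aldh18a1, Gpi1 and Ric8a, all with an r above 0.99. The 8 points come from 4 lines and share them.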

How the data were processed

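Total RNA of 8 libraries was sequenced, and the authors aligned the reads to mm10 (GRCm38.p6) with STAR and counted them per gene with HTSeq. The submitters' processing notes give STAR 2.7.3a and HTSeq 0.11.2, while the published methods name other versions, and the strand option is not given in the sources used here. The deposited table holds raw counts, which were used, for genes with at least 20 counts in all and none on chromosomes X or Y. It also holds the authors' size-factor scaled signal and their own comparison (log2 fold change with its standard error, test score, p-value and adjusted p-value), which were not used.

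Counts were fitted with edgeR 4.0.16 in R 4.3.3 (TMM scaling, quasi-likelihood test, Benjamini-Hochberg adjustment over 15153 genes past filterByExpr), once by label and once by line. A call needed an adjusted p under 0.05 and a log2 difference above 0.59 in size. DESeq2 1.42.0, limma 3.58.1 (voom), upper-quartile scaling, no filter, no fold threshold, counts added per line, a replicate block and leaving out each library or line were the alternatives. On simulated 2-fold changes in 200 genes, 167 were recovered in the comparison of the labels, with 0 false calls among 14975 genes, and 149 between MC010 and MC011, with 2 false calls among 14965. In the simulation of the labels, lines of one label had the same level, with the spread taken within lines. The real lines differ, so its false calls do not measure the error rate of the comparison of the labels. The 2 libraries of a line differed by more than counting noise (chi-square over degrees of freedom 7.60 to 13.1). The named genes were all members, genes past both thresholds in 4 pathway lists, and other ligands and close relatives of the receptors. Genes adjacent to a member or within 1 Mb of it, cell type markers and Irf8 were also named. The 3 genes most like each tested member were found, and those of Pdgfra, Egfr and Axl are named. The members and lists were chosen with earlier results of these data known. Pdgfrb was left out when promoter windows were read, so no window is given for it.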

Additional observations from a re-analysis of the deposited data

Results flagged for a closer look

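The effect against the WT lines differed between MC010 and MC011, by the edgeR fit by line, for 6 of the 9 tested members (2 higher in MC010, 4 lower) and for many of the 53 tested pathway genes (17 higher, 10 lower), where 31.6% of all genes tested were called. The 23 listed here are the members, ligands and relatives called, with the other pathway genes that were also called between the labels. Values here are the log2 effect in MC010 minus that in MC011, which equals MC010 minus MC011. Among members it was -2.64 for Pdgfra, -1.502 for Pdgfrb, -1.98 for Pdgfc, -1.47 for Egfr, 0.83 for Met and 2.67 for Hgf.

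Among ligands it was positive for Pdgfd (5.15), Btc (4.20), Ereg (1.94), Pdgfb (1.63) and Hbegf (1.60), and negative for Gas6 (-5.53), Tgfa (-3.92), Pros1 (-2.31) and Egf (-1.20). Among receptors it was 3.75 for Mst1r, 1.61 for Mertk, -1.42 for Erbb3 and -2.86 for Flt4. Among extracellular and adaptor genes it was 5.24 for Igfbp3, 3.58 for Spint1, 3.05 for Igfbp5 and -1.05 for Irs1. Both lines carry the same label, and line and any effect of their culture cannot be told apart.

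In 3 of 94 groups of 4 libraries, 1 library stood far from the rest by Dixon's test, where chance gives about 1 in 20 for independent values. That rate does not apply here, since each group joins paired libraries of different lines. Groups at 0 throughout, which cannot be flagged, were also counted among the 94. Pdgfrl was low in the second library of MC010 (0.0680 CPM). Kdr was high in the second library of MC010 (0.354 CPM) and in the first of MC654 (0.0719 CPM), all of them near 0.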

How the results depend on the processing

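Pdgfra, Egfr and Axl were called under DESeq2, upper-quartile scaling, no filter on low counts and the replicate block, and with any 1 library left out. Leaving out 1 library at a time gave 1 to 1 members higher, 2 to 2 lower, 18 to 22 pathway genes higher and 1 to 2 lower. With counts added per line, 0 members were higher, 0 lower, and 0 pathway genes were called either way. In that edgeR fit 0 of 16927 genes passed and 3658 had an unadjusted p under 0.05. In limma-voom with line as a random effect, 1 member was higher and 2 were lower, and 11 pathway genes were higher and 0 lower. DESeq2 and the fit with no filter each gave 2 pathway genes lower in place of 1. DESeq2 also brought Pdgfc past the threshold (adjusted p 0.0428). With no fold threshold, 4 pathway genes were lower, and 8 members differed between MC010 and MC654, 8 between MC011 and MC659 and 4 between MC654 and MC659.

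Without MC010, 3 members were higher and 3 lower, Hgf (-2.33) among the latter, 5 pathway genes were lower, and Met turned to -0.11. Of the 9 tested members only Pdgfra (4.59) and Pdgfrb (1.16) were among those higher, so the other was Kit. Kit passes the filter in that fit only through its counts in MC011, the only line left under the IRF8 KO label. Without MC011, 2 members were higher and 3 lower, Pdgfc (-2.39) among the latter. With that line left out, 8 pathway genes were lower, Pdgfrb turned to -0.34 and Hgf to 0.36. Without MC654, 0 members were higher, 9 pathway genes higher, and Hgf turned to 0.11. Without MC659, 0 members were higher, with 7 pathway genes higher and 2 lower. The cause was not tested.

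Library numbers did not pair the libraries (correlations of deviations from -0.0273 to 0.0552 between lines). With the replicate block the counts of members stayed at 1 higher and 2 lower, pathway genes at 18 and 1, and all genes went from 2083 higher and 1321 lower to 1917 and 1189. Depth limits Kit, which rests on 78 and 65 counts in MC011.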
